A study of Mus musculus with 8 samples.

Results

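The Bcl-2 family decides whether the outer membrane of the mitochondrion stays intact, and 10 of its genes were followed here in mouse CD8+ T cells given interferon beta (IFNb), T cell receptor (TCR) stimulation or both. The 10 genes were Bcl2, Bcl2l1, Mcl1 and Bcl2a1b, whose proteins hold death back, Bax, a pore-forming effector, and Bid, Bcl2l11, Bmf, Bbc3 and Pmaip1, which belong to the death-promoting BH3-only group. They were found by gene name among the non-control probes of the array, and each gene was read from the brightest of its probes over the 7 conditions. All 10 had a kept probe, out of 19815 genes that did, and all 10 were well above background and unsaturated on all 8 arrays. None was lost to the filter on dim probes.

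The cells were splenic CD8+ T cells of OT-I TCR transgenic mice on a C57BL6 background, whose receptor recognises the ovalbumin peptide SIINFEKL on H-2Kb, and TCR stimulation was given as SIINFEKL streptamers. The conditions were IFNb for 1 h and then TCR for 1 h or 6 h, TCR alone for 1 h or 6 h, IFNb alone for 2 h or 7 h, and untreated. Each treated condition had 1 array and untreated cells had 2. All groups carried the same transgene, so a wild-type receptor repertoire was not represented, and the labels do not say whether arrays came from separate mice or cultures.

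As background, the survival proteins Bcl-2, Bcl-xL (from Bcl2l1), Mcl-1 and A1 (from the Bcl2a1 genes) bind and hold the BH3-only proteins and the pore formers Bax and Bak. BH3-only proteins carry signals of stress, of growth factor loss or of DNA damage to them, and when Bax or Bak forms pores, cytochrome c leaves the mitochondrion and activates caspases. In T cells Bcl-2 and Mcl-1 keep resting cells alive, A1 and Bcl-xL are known as genes of activated cells and targets of NF-kB factors, and Bim (from Bcl2l11) removes responding cells when an immune response ends.

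Probe sequences are shown for genes whose readings turn on which transcript a probe can see. Each probe is 60 bases, printed 5′ to 3′ as in the scanner files, and each of the 6 lies in protein-coding sequence. Coordinates are in build mm9, and where the stretch is longer than the probe, the probe crosses a splice junction. The Bcl2l11 probe lies at chr2:127972893-127983988 on the plus strand, and its capitals mark the codons at the conserved core of the BH3 domain, the part of Bim that docks onto survival proteins. The Bcl2a1b probe lies at chr9:89094570-89102431 on the plus strand, and its capitals mark the codons that open the conserved BH2 region. Of the rest, the Bcl2a1c probe lies at chr9:114239422-114239481 (plus), Bcl2l1 at chr2:152655185-152655244 (minus), Bcl2 at chr1:108608970-108609029 (minus) and Bax at chr7:52721469-52721624 (minus).
Bcl2l11: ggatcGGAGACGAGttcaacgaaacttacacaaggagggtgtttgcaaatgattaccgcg
Bcl2a1b: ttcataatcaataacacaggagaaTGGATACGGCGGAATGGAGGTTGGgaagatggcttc
Bcl2a1c: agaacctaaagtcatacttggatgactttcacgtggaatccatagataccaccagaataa
Bcl2l1: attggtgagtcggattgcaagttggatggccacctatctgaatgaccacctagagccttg
Bcl2: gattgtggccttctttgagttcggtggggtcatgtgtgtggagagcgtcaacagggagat
Bax: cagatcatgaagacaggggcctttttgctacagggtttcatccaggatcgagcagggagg

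The Bcl2a1b probe cannot tell the A1 copies apart. The scanner files list it against 3 RefSeq transcripts, which the reference annotation gives to Bcl2a1b, Bcl2a1d and Bcl2a1a. The Bcl2a1c probe names 1 transcript. Its longest run shared with the Bcl2a1b probe is 5 bases, but the 2 probes start at different bases, 169 and 459. The run therefore does not tell whether the Bcl2a1c probe also reads the other A1 copies, which was not tested. The Bax and Bcl2a1b readings come from the probes printed above. For Bcl2, Bcl2l1 and Bcl2l11 the brightest probe is another one farther along the transcript: chr1:108434793-108434852 (minus), chr2:152606631-152606690 (minus) and chr2:127988051-127988110 (plus). Those used for the other genes lie at chr3:95466855-95466914 (Mcl1, plus), chr2:118354519-118354578 (Bmf, minus), chr7:16903403-16903462 (Bbc3, plus) and chr6:120843464-120843523 (Bid, minus), and the Pmaip1 probe is on chromosome 18.

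Signals below are linear, scaled so that the 75th percentile of each array is 1500, and a level of one gene cannot be set against that of another. Arrays had 26065 to 29533 of 43379 non-control spots well above background, and their number limits the precision. Slide 1 held untreated replicate 1, IFNb 2 h and both 1 h TCR arrays, and slide 2 held untreated replicate 2, IFNb 7 h and both 6 h TCR arrays. Over 152 repeated probes well above background, the 2 untreated arrays parted by close to the spread of repeated spots (robust SD 0.0373 on the log2 scale, with 0.0351 expected), and their mean counted as 1 sample. Over all 245 repeated probes, dim ones included, the robust SD was 0.0735, with 0.0535 expected. The deposited sources give the 2 arrays with 1 h TCR opposite identities. The series value table's naming was used, under which Isg15, an interferon-stimulated gene, stood at 204800 on the array called IFNb with TCR 1 h and at 4743 on the array called TCR 1 h. Every IFNb difference at 1 h TCR below has its sign turned under the other naming.

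The CD8 T cell markers Cd8a, Cd8b1, Cd3e, Cd3d and Cd3g were well above background on all 8 arrays. The submitters put purity at 90 to 97%. Markers of B cells, summed over 5 of 6 listed genes, ranged from 4427 to 5205 with 6 h TCR, from 9945 to 11100 with 1 h TCR and from 12680 to 40550 without TCR, and Pax5 had no kept probe. In bulk RNA, fewer cells of a type and less RNA per cell cannot be told apart.

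**Figure D1:**
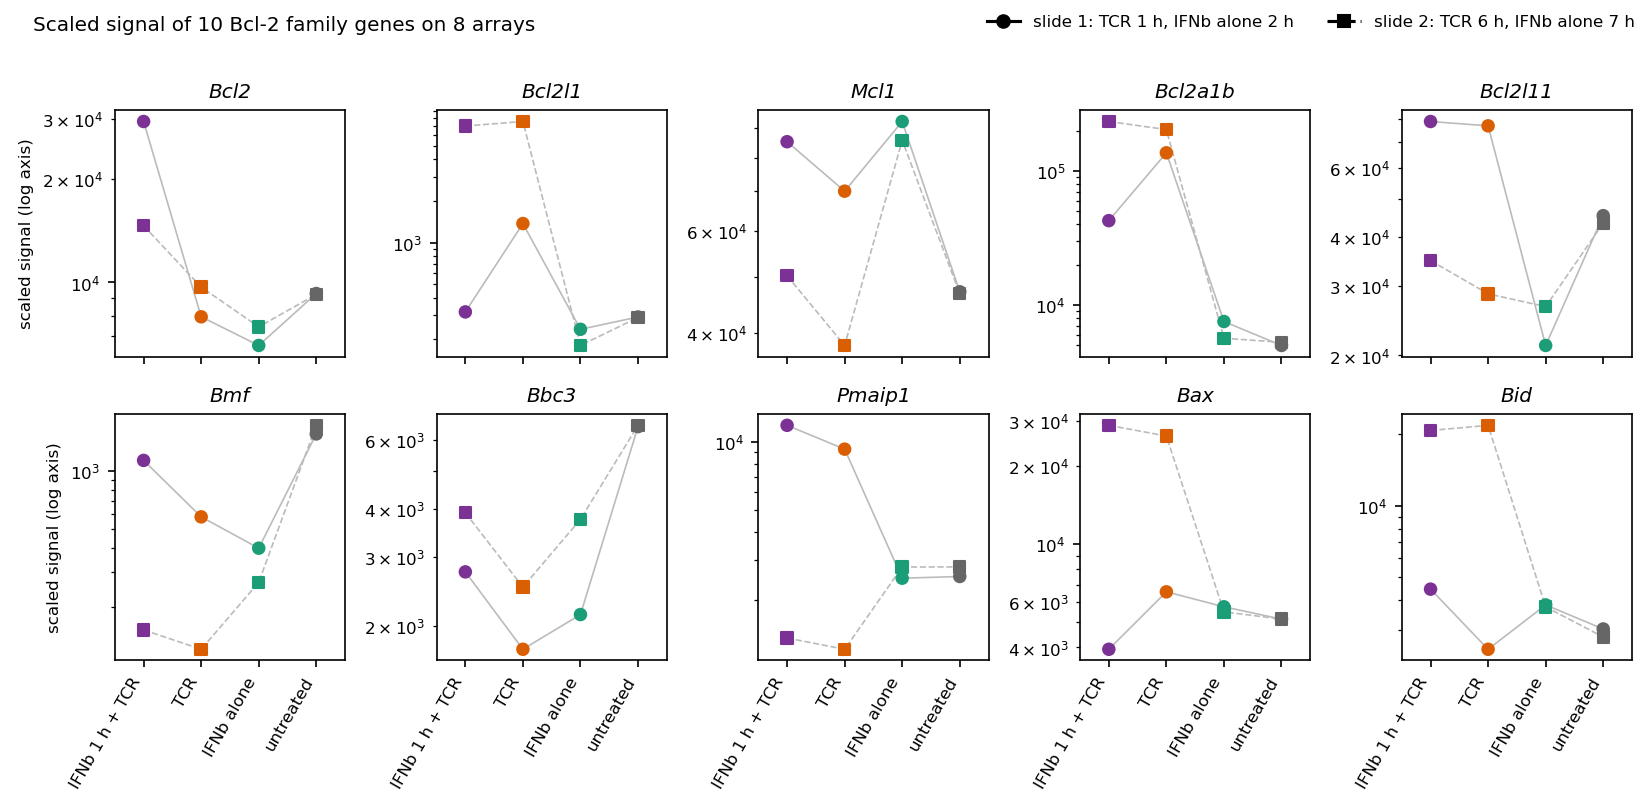
Scaled signal (log axis) of each gene on each of the 8 arrays. Circles joined by solid lines are slide 1 and squares joined by dashed lines are slide 2, and each point is 1 array. Bcl2l1, Bax and Bid stand high on both arrays with 6 h TCR, Bcl2a1b on all 4 arrays with TCR, and Pmaip1 on both arrays with 1 h TCR.

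Of the 4 survival genes, Bcl2a1b rose at both TCR times and Bcl2l1 at 6 h. Bcl2a1b, whose protein A1 binds BH3-only proteins in activated lymphocytes, had 42700 after IFNb with TCR 1 h and 137000 after TCR 1 h, against 7540 after IFNb 2 h and 4998 in untreated cells of slide 1. On the other slide the signal was 234700 after IFNb with TCR 6 h and 204300 after TCR 6 h, against 5656 after IFNb 7 h and 5276 in untreated cells. All 4 arrays with TCR lay above all 4 without.

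The additive fit takes out only 1 IFNb difference common to all arrays, with and without TCR. In it Bcl2a1b rose with TCR 1 h by 3.62 ± 0.49 on the log2 scale (SE, 2 arrays against 3 samples, limma adjusted p = 0.021) and with TCR 6 h by 5.13 ± 0.49, a 35.1-fold change (adjusted p = 0.00064). At 1 h the single-array differences were 4.78 for TCR 1 h against untreated and 2.50 for IFNb with TCR 1 h against IFNb 2 h. The Bcl2a1c probe, whose reading may include other A1 copies, rose with TCR 1 h by 3.58 ± 0.54 (limma adjusted p = 0.026). With TCR 6 h it rose by 5.17 ± 0.54 (adjusted p = 0.0008). Its signal was 12460 after IFNb with TCR 1 h and 49700 after TCR 1 h, against 2382 after IFNb 2 h and 1774 in untreated cells of slide 1. Between TCR 6 h and TCR 1 h the Bcl2a1b difference was 1.52 ± 0.53 and did not pass (adjusted p = 0.074). It rested on which 1 h array was kept: it was 2.50 without the TCR 1 h array (adjusted p = 0.02) and 0.53 without IFNb with TCR 1 h (adjusted p = 0.36).

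Bcl2l1, the gene of Bcl-xL, had 315.1 after IFNb with TCR 1 h and 1374 after TCR 1 h, against 235.9 after IFNb 2 h and 289.5 in untreated cells of slide 1. Slide 2 gave 6982 after IFNb with TCR 6 h and 7528 after TCR 6 h, against 180.2 after IFNb 7 h and 287.2 in untreated cells. By this probe every array with TCR was above every array without, and at 1 h the array with IFNb lay close to the untreated ones. The dimmer Bcl2l1 probes did not show this separation at 1 h. The probe at base 129 had 42.96 after IFNb with TCR 1 h and 50.29 after IFNb 2 h. The printed probe had 23.09 and 25.59.

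Bcl2l1 rose with TCR 6 h by 4.83 ± 0.46, a 28.5-fold change (adjusted p = 0.00065), and stood higher at TCR 6 h than at TCR 1 h by 3.46 ± 0.50 (adjusted p = 0.0047). The value at TCR 1 h, 1.37 ± 0.46, did not pass (adjusted p = 0.15). Its probe at base 129, well above background on 7 of 8 arrays, also rose with TCR 6 h, by 3.89 ± 0.44 (adjusted p = 0.00098 over all kept probes). The printed Bcl2l1 probe was well above background on both 6 h TCR arrays, with 769.4 after IFNb with TCR 6 h and 939.9 after TCR 6 h, but on only 1 of the 4 arrays without TCR, so no fold is given for it.

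Mcl1 and Bcl2, the survival genes of resting T cells, did not pass with TCR at either time. Mcl1, which encodes a short-lived protein, had 85170 after IFNb with TCR 1 h and 70080 after TCR 1 h, against 92240 after IFNb 2 h and 47130 in untreated cells of slide 1. On slide 2 it had 50210 after IFNb with TCR 6 h and 38140 after TCR 6 h, against 85640 after IFNb 7 h and 46800 in untreated cells. Arrays with and without TCR overlapped, and both arrays with IFNb alone were the high ones among those without TCR.

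The Mcl1 differences were 0.20 ± 0.26 at TCR 1 h and -0.62 ± 0.26 at TCR 6 h (adjusted p = 0.094) in limma. With quantile normalization the Mcl1 value at TCR 6 h was -1.38 (adjusted p = 0.00516). Bcl2 had 29440 after IFNb with TCR 1 h and 7945 after TCR 1 h, against 6556 after IFNb 2 h and 9286 in untreated cells of slide 1. On the other slide the signal was 14630 after IFNb with TCR 6 h and 9697 after TCR 6 h, against 7427 after IFNb 7 h and 9230 in untreated cells. By this probe the 2 arrays that received both agents held the highest Bcl2 signals, and TCR alone lay close to untreated. Both other Bcl2 probes, given below, were higher after TCR 1 h than in untreated cells. Fitted Bcl2 differences were 1.09 ± 0.50 at TCR 1 h (adjusted p = 0.25) and 0.73 ± 0.50 at TCR 6 h (adjusted p = 0.28).

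On the death-promoting side, Bax and Bid rose with TCR 6 h and did not pass at TCR 1 h. Bax, which forms pores in the mitochondrial membrane, had 28810 after IFNb with TCR 6 h and 26200 after TCR 6 h, against 5492 after IFNb 7 h and 5148 in untreated cells of slide 2. On slide 1 it had 3937 after IFNb with TCR 1 h and 6560 after TCR 1 h, against 5743 after IFNb 2 h and 5147 in untreated cells. The 6 h arrays stood apart from all the rest, and the 1 h arrays lay on either side of those without TCR.

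Bax rose with TCR 6 h by 2.31 ± 0.29, a 4.96-fold change (adjusted p = 0.0014), and differed by -0.12 ± 0.29 at TCR 1 h. Bid, which caspase-8 cuts to link death receptors to mitochondria, had 20730 after IFNb with TCR 6 h and 21790 after TCR 6 h, against 3746 after IFNb 7 h and 2803 in untreated cells of slide 2. On slide 1 it had 4454 after IFNb with TCR 1 h and 2487 after TCR 1 h, against 3822 after IFNb 2 h and 3028 in untreated cells. Bid showed the same split between 6 h and the other arrays. It rose with TCR 6 h by 2.68 ± 0.27, a 6.4-fold change (adjusted p = 0.00076), and its difference at TCR 1 h was 0.00 ± 0.27.

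Pmaip1, the gene of Noxa, a BH3-only protein that binds Mcl-1 and A1, was high at 1 h and low at 6 h. On slide 1 it had 11850 after IFNb with TCR 1 h and 9292 after TCR 1 h, against 2489 after IFNb 2 h and 2533 in untreated cells. Slide 2 gave 1352 after IFNb with TCR 6 h and 1205 after TCR 6 h, against 2790 after IFNb 7 h and 2793 in untreated cells. The 4 arrays without TCR lay between the 2 pairs with TCR.

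Pmaip1 rose with TCR 1 h by 2.01 ± 0.23, a 4.04-fold change (adjusted p = 0.016), and fell with TCR 6 h, at -1.03 ± 0.23 (adjusted p = 0.013). At TCR 6 h it was lower than at TCR 1 h by a log2 difference of -3.04 ± 0.25 (adjusted p = 0.0016). With arrays scaled to their median instead, which moved the median of all genes at TCR 6 h to 0.375 instead of 0.046, the 6 h value was -0.70 (adjusted p = 0.064).

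Bcl2l11, the gene of Bim, had 79000 after IFNb with TCR 1 h and 77010 after TCR 1 h, against 21210 after IFNb 2 h and 45450 in untreated cells of slide 1. On slide 2 it had 34910 after IFNb with TCR 6 h and 28720 after TCR 6 h, against 26640 after IFNb 7 h and 43490 in untreated cells. The 1 h TCR arrays were the highest, and the 6 h arrays lay between IFNb alone and untreated. Its difference at TCR 1 h, 1.37 ± 0.34, did not pass (adjusted p = 0.079), and at TCR 6 h it was 0.07 ± 0.34. At TCR 6 h it was lower than at TCR 1 h, at -1.30 ± 0.37 (adjusted p = 0.04), a call lost with slide as a block (-1.43, adjusted p = 0.14) and in 10 of 17 alternatives in all, among them leaving out the IFNb 7 h array or any 1 of the 4 TCR arrays.

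Bmf, a BH3-only protein tied to the cytoskeleton in resting cells, had 1134 after IFNb with TCR 1 h and 580.2 after TCR 1 h, against 400.1 after IFNb 2 h and 1553 in untreated cells of slide 1. On the other slide the signal was 151.6 after IFNb with TCR 6 h and 120.5 after TCR 6 h, against 266.6 after IFNb 7 h and 1720 in untreated cells. Untreated cells had the highest signal on each slide. The fitted TCR difference was 0.45 ± 0.75 at 1 h, and at 6 h -2.14 ± 0.75, which did not pass (adjusted p = 0.059). Without either of the 1 h TCR arrays (-2.24, adjusted p = 0.046) or without the IFNb 7 h array (-2.58, adjusted p = 0.04) it did.

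Bbc3, the gene of Puma, a p53 target that binds every survival protein of the family, had 2750 after IFNb with TCR 1 h and 1739 after TCR 1 h, against 2136 after IFNb 2 h and 6500 in untreated cells of slide 1. Slide 2 gave 3904 after IFNb with TCR 6 h and 2513 after TCR 6 h, against 3754 after IFNb 7 h and 6550 in untreated cells. Here too the untreated arrays were highest, and all 6 treated arrays lay below them. The fitted TCR differences, -0.79 ± 0.53 at 1 h and -0.27 ± 0.53 at 6 h, did not pass.

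**Figure D2:**
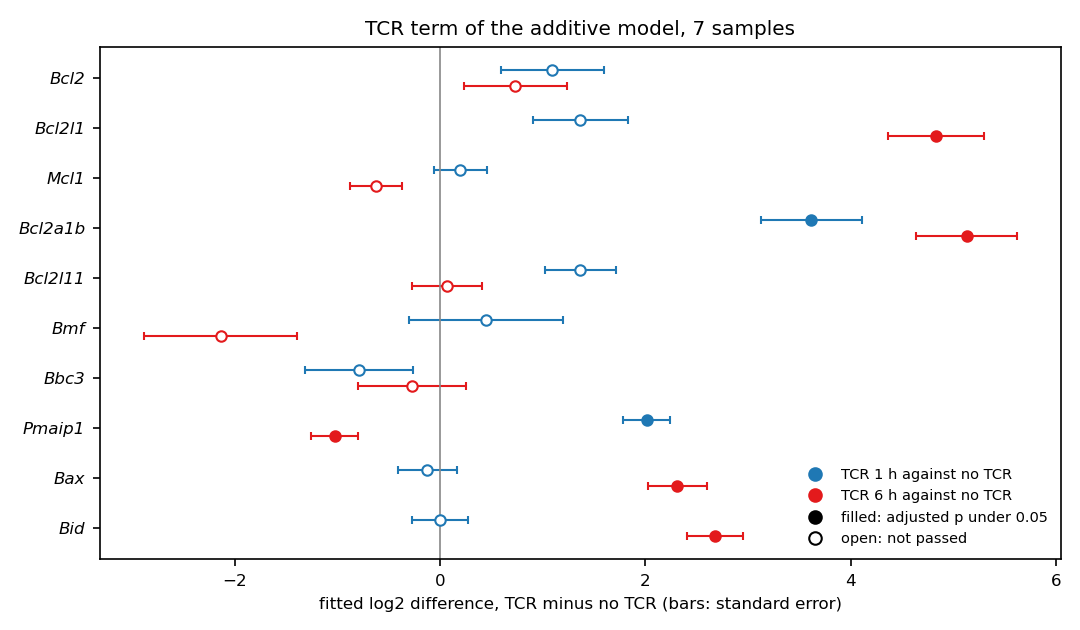
Fitted log2 difference of each gene with TCR against no TCR at 1 h (blue) and 6 h (red), with standard errors, from the additive model over 7 samples. Filled points passed the adjusted threshold of 0.05: Bcl2a1b at 3.62 and Pmaip1 at 2.01 at 1 h, and Bcl2l1, Bcl2a1b, Bax and Bid above 0 and Pmaip1 at -1.03 at 6 h.

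Counted over the family, TCR 1 h raised 2 of 10 genes, where 2.57% of all genes tested were called higher, and lowered none, where 1.73% were called lower (4.3% in either direction). TCR 6 h raised 4, where 22.3% of all genes were called higher, and lowered 1, where 22.8% were called lower. The share called at 6 h, 5 of 10, stood close to the 45.1% called over all genes in either direction. Between TCR 6 h and TCR 1 h, Bcl2l1, Bax and Bid were higher at 6 h (16.4% of all genes) and Pmaip1 and Bcl2l11 were lower (15.7%), that is 5 of 10 genes where 32.1% of all genes were called. Bax stood 2.44 ± 0.31 and Bid 2.67 ± 0.30 above their 1 h levels. The median log2 difference of the 10 genes was 0.77 at TCR 1 h and 0.40 at TCR 6 h, against -0.05 and 0.046 over all genes.

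Both calls at TCR 1 h were lost without the IFNb 2 h, the TCR 1 h or the IFNb 7 h array, and that of Pmaip1 also without IFNb with TCR 1 h. The Pmaip1 value stayed between 1.86 and 2.14 in these fits. The Bcl2a1b value was 3.83 without IFNb 2 h, 3.62 without IFNb 7 h and 2.73 without TCR 1 h, and it was 4.70, still called, without IFNb with TCR 1 h. Over all genes the same fits called 106, 116, 38 and 94 genes, in place of 852. Without either 6 h TCR array the Pmaip1 call at TCR 6 h was lost, at -1.02 and -1.04 (adjusted p = 0.064 and 0.1). The Bcl2l1, Bcl2a1b, Bax and Bid calls at 6 h held in all 19 alternatives, and within slide 2 alone. Times of TCR and slides coincide, so the 6 h against 1 h differences compare slides as well. The reported fit has no slide term and takes these differences directly between slides. With slide as a block, where the arrays without TCR link the slides, 2826 of all genes were called in place of 6357.

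IFNb alone was followed in 2 pairs of single arrays, and by the brightest probes 3 BH3-only genes were low in both. The Bmf difference from untreated was -1.96 at 2 h and -2.69 at 7 h, a 3.88-fold and a 6.45-fold lower signal. For Bbc3 the log2 differences were -1.60 and -0.80, and for Bcl2l11 -1.10 and -0.71. Mcl1 moved the other way, with 0.97 at 2 h and 0.87 at 7 h. These are single-array differences with no replicate error, each from 1 probe. The other kept Bcl2l11 probe was also lower with IFNb at both times. That of Bmf was higher, with 328.2 against 257 at 2 h and 360.6 against 224.4 at 7 h. The second Mcl1 probe had 28250 against 25710 at 2 h and 43550 against 26030 at 7 h.

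By the brightest probes 3 of the 10 genes were at least 2-fold lower at 2 h (4.93% of all genes) and 1 was at 7 h (7.38%). None was 2-fold higher by these probes (10.5% and 9.7%). The remaining 6 genes lay within a log2 difference of -0.67 to 0.59 at both times by the same probes. The printed Bcl2 probe, however, had 5329 after IFNb 2 h against 1033 in untreated cells, and 1395 after IFNb 7 h against 1083. The Bcl2 probe at base 2279 had 3900 against 294.6, and 623.1 against 341.2. The 2 untreated arrays themselves differed by -0.15 to 0.11 over the 10 genes, and by 2-fold or more for 2.93% of all genes. Beside these differences, summed B cell markers had 40550 at 2 h and 35030 at 7 h, against 13080 and 12680 in untreated cells, and summed class II markers had 52210 and 31250, against 23480 and 23020. None of these marker genes passed for IFNb, and their part in the differences was not tested.

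The IFNb difference was also read in cells with TCR. After TCR 1 h the array with IFNb had a Bcl2 signal 3.71-fold higher (1.89 on the log2 scale), a Bcl2l1 signal 4.36-fold lower (-2.12) and a Bcl2a1b signal 3.21-fold lower (-1.68) than the array without. The Bcl2 probe printed above had 8842 with IFNb and 8081 without on this pair, and the one at base 2279 had 3262 and 1265. Bmf stood at 0.97, Bid at 0.84, Bbc3 at 0.66 and Bax at -0.74, all log2 differences within 2-fold. In that pair 10% of all genes were at least 2-fold higher and 5.66% at least 2-fold lower with IFNb.

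At TCR 6 h the IFNb differences were small for all 10 genes, between -0.11 for Bcl2l1 and 0.64 for Bbc3, and none reached 2-fold. Over all genes 5.56% did. Bcl2 stood at 0.59 and Bcl2a1b at 0.20. So Bcl2l1 and Bcl2a1b, which were lower with IFNb at 1 h, had nearly equal signals in cells with and without IFNb at 6 h, while Bcl2 was above its partner array at both times.

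**Figure D3:**
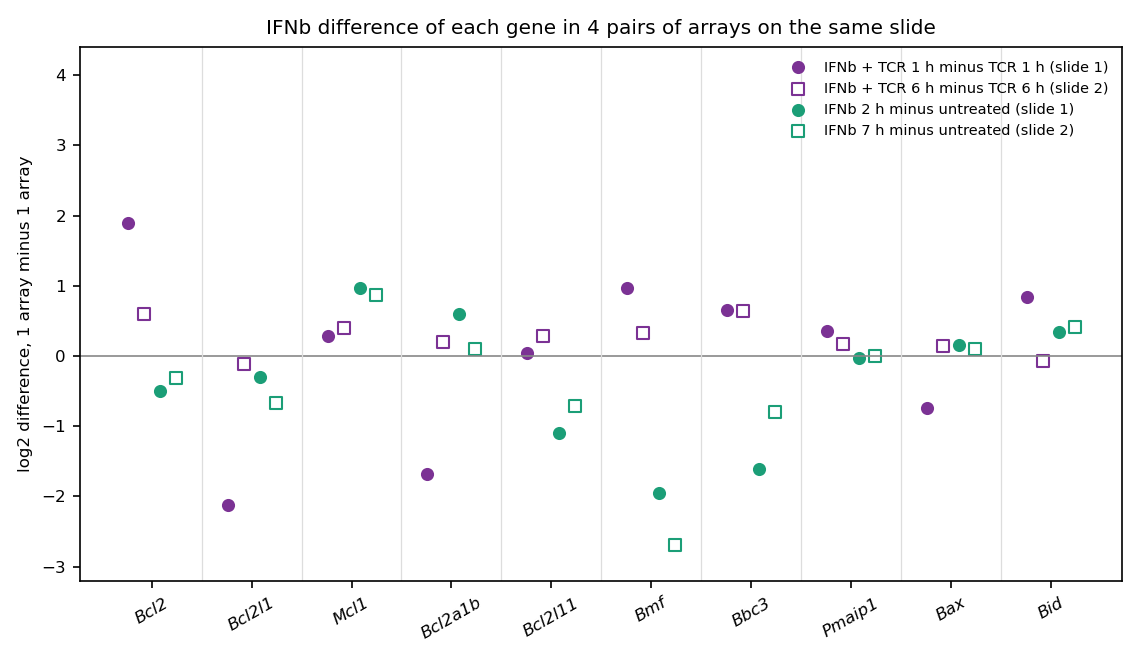
Log2 difference between an array with IFNb and its partner without, both from the same slide, for each gene in 4 pairs. Purple points have TCR in both arrays and green points have none; each point is a difference of 2 arrays with no replicate error. Bmf runs from -2.69 at 7 h IFNb alone to 0.97 with TCR 1 h, and Bcl2, Bcl2l11 and Bbc3 also lie below 0 in both green points and above 0 in both purple points.

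Averaged over all pairs by the additive model, no member passed for IFNb, where 0.0656% of all genes did (13 of 19815, with 1702 at an unadjusted p under 0.05). Fitted values lay between -0.86 ± 0.39 for Bcl2l1 and 0.58 ± 0.42 for Bcl2, and 1 member, Mcl1 at 0.57 ± 0.21, had an unadjusted p under 0.05 (limma adjusted p = 0.54). Under the scanner files' naming of the 1 h pair, 6 of these 10 values had the opposite sign, Bcl2 at -0.55 and Bcl2l1 at 0.41 among them, and none passed.

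Whether IFNb acted differently with TCR was tested as an interaction in limma. The largest member value was that of Bmf, 3.29 ± 0.60 at TCR 1 h (adjusted p = 0.57) and 2.65 ± 0.60 at TCR 6 h (adjusted p = 0.52). For Bcl2 the interaction was 2.30 ± 0.47 at TCR 1 h and 1.00 ± 0.47 at TCR 6 h, for Bcl2a1b -2.03 ± 0.53 and -0.15 ± 0.53, and for Bcl2l1 -1.64 ± 0.52 and 0.38 ± 0.52. None passed, and 0 of 19743 genes passed at TCR 1 h and 0 of 19776 at TCR 6 h, while 1501 and 1634 had an unadjusted p under 0.05. Of the members 4 did so at TCR 1 h and 1 at TCR 6 h. That fit had 1 residual degree of freedom. The sign of the TCR 1 h interaction turned under the scanner files' naming for 6 members, among them Bcl2 (-1.48), Bcl2l1 (2.61) and Bcl2a1b (1.34), and none passed there either.

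Several genes have more than 1 probe, and their readings differed in places. The Bcl2l11 probe printed above, which starts at base 682 of its transcript, had 1772 after IFNb with TCR 1 h and 4818 after TCR 1 h, against 253.3 after IFNb 2 h and 720.7 in untreated cells of slide 1. On slide 2 it had 1642 after IFNb with TCR 6 h and 1217 after TCR 6 h, against 395.5 after IFNb 7 h and 684.6 in untreated cells. All 4 TCR arrays lay above all others. By this probe Bcl2l11 rose with TCR 1 h by 2.70 ± 0.46 (adjusted p = 0.033 over all kept probes) and with TCR 6 h by 1.65 ± 0.46 (adjusted p = 0.027), whereas the brightest probe, at base 4804, had 1.37 and 0.07 and passed at neither. Both probes were lower with IFNb alone than in untreated cells.

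For Bcl2 the probe in the coding part, printed above, had 8842 after IFNb with TCR 1 h and 8081 after TCR 1 h, against 5329 after IFNb 2 h and 1033 in untreated cells of slide 1. On the other slide the signal was 6422 after IFNb with TCR 6 h and 4066 after TCR 6 h, against 1395 after IFNb 7 h and 1083 in untreated cells. All 6 treated arrays exceeded the untreated ones, while the brightest probe, at base 7109, was below untreated with IFNb alone. Another Bcl2 probe, at base 2279, had 3262 after IFNb with TCR 1 h, 1265 after TCR 1 h and 3900 after IFNb 2 h, against 294.6 in untreated cells of slide 1. None of the 3 Bcl2 probes passed in any comparison. The printed one had 2.22 ± 0.60 at TCR 1 h (adjusted p = 0.087) and 1.49 ± 0.60 at TCR 6 h (adjusted p = 0.083).

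The second Mcl1 probe, at base 1928, had 28250 after IFNb 2 h and 25710 in untreated cells of slide 1, and 43550 after IFNb 7 h and 26030 in untreated cells of slide 2. It therefore showed little difference at 2 h, where the brightest probe was 1.96-fold higher. By the second probe Mcl1 was lower at TCR 6 h than at TCR 1 h, at -1.28 ± 0.31 (adjusted p = 0.023), a comparison the brightest probe missed (-0.82 ± 0.28, adjusted p = 0.067). For Bmf the probe at base 754 stayed between 202.1 and 360.6 on all 8 arrays, with 328.2 after IFNb 2 h and 257 in untreated cells of slide 1, and it did not show the low signal that the brightest probe had with IFNb alone and with TCR 6 h. One more Bmf probe, at base 2089, was well above background on 1 array only and was left out of the fits. Its signal was 24.92 after IFNb with TCR 1 h and 8.30 after TCR 1 h, against 6.32 after IFNb 2 h and 34.58 in untreated cells of slide 1, and on slide 2 it was 4.24 after IFNb with TCR 6 h and 6.00 after TCR 6 h, against 8.13 after IFNb 7 h and 26.68 in untreated cells. These dim readings were also highest in untreated cells. The Bcl2l1 probe at base 129 had 50.29 after IFNb 2 h and 27.7, not well above background, in untreated cells of slide 1, where the brightest Bcl2l1 probe was lower with IFNb. Over the 7 other kept probes and 6 comparisons, 12 of 42 values had the opposite sign to the brightest probe, none of them called by either.

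**Figure D4:**
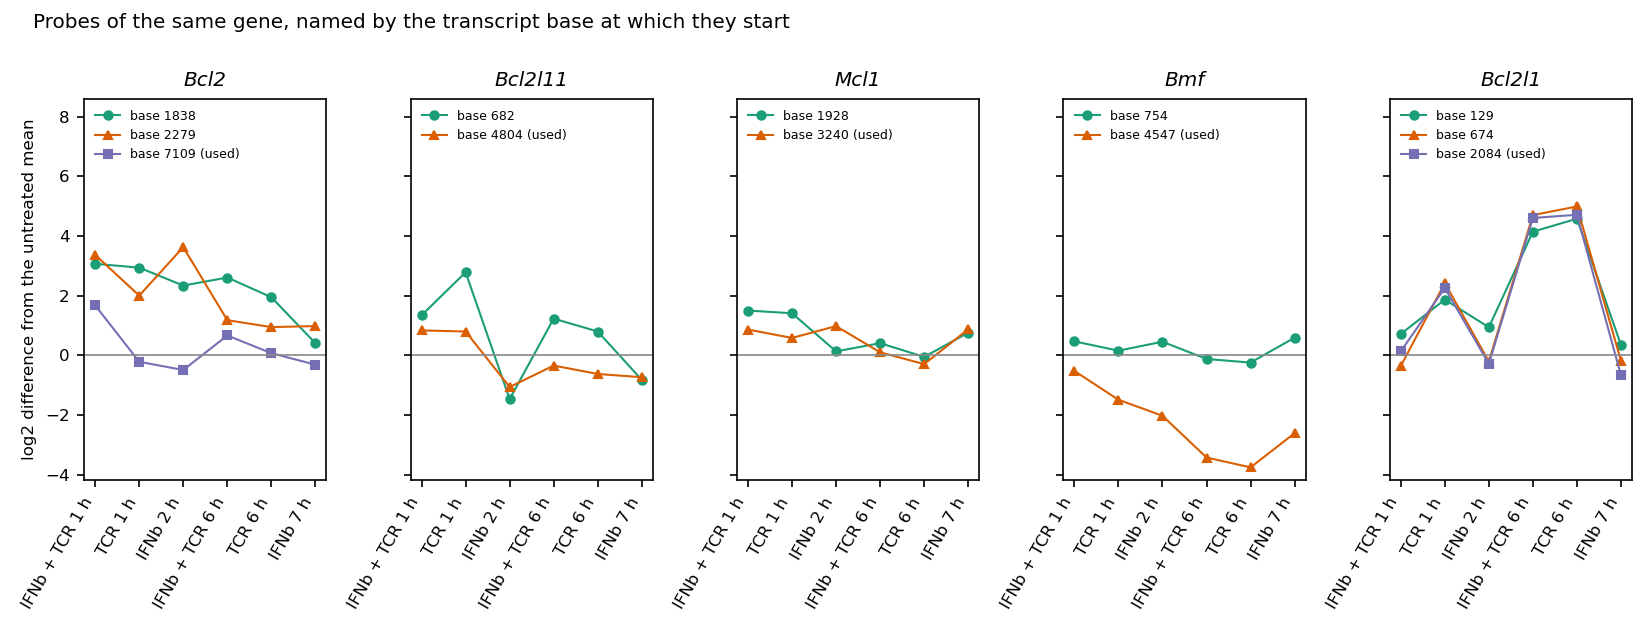
Log2 difference of each kept probe from the untreated mean on the 6 treated arrays, for 5 genes with several probes. Lines join the values of 1 probe, named by the transcript base at which it starts, and the probe used above is marked. The 3 Bcl2l1 probes all stand high with 6 h TCR and part with IFNb alone, where their signals lie near background for 2 of them, and the 2 Bmf probes part on every array.

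The rest of the family and the death machinery below it give the setting, from lists set with earlier results of these data known. At TCR 6 h 22.3% of all genes rose and 22.8% fell. Of 12 measured further family genes 2 rose, Bcl2a1c and Bnip3 (1.76 ± 0.53), a mitophagy receptor, and 2 fell, Bad (-2.43 ± 0.34) and Bnip3l (-1.26 ± 0.25). Whether the Bcl2a1c reading is separate from that of Bcl2a1b was not tested. Bad, a BH3-only gene controlled by growth factor kinases, also fell with TCR 1 h (-1.92 ± 0.34, adjusted p = 0.038) and had 115.6 after IFNb with TCR 6 h and 94.01 after TCR 6 h, against 895.5 after IFNb 7 h and 453 in untreated cells. Bak1, the second pore former, did not pass (0.69 at TCR 6 h). Their median was 0.40 at TCR 6 h against 0.046 over all genes. With IFNb none passed, and Bad (0.84 ± 0.29) and Bnip3 (-0.52 ± 0.44) had the largest values.

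In the mitochondrial pathway below the family, genes moved in both directions. Of 16 measured genes, 5 rose and 6 fell with TCR 6 h, beside 22.3% and 22.8% of all genes, and their median was -0.46. Cycs (cytochrome c) rose by 2.77 ± 0.36 and Endog, a mitochondrial nuclease, by 1.86 ± 0.29. Casp9, the initiator caspase that cytochrome c activates, fell by 3.32 (SE 0.26, adjusted p = 0.00045) and Casp6 by 1.54. Casp9 had 299.1 after IFNb with TCR 6 h and 243.7 after TCR 6 h, against 2344 after IFNb 7 h and 2657 in untreated cells, and it was the 1 gene of this list called at TCR 1 h (-1.63 ± 0.26). Against TCR 1 h, Aifm1 was higher at 6 h (1.14 ± 0.23) and Apaf1, the scaffold of Casp9, was lower (-1.37 ± 0.27). None passed for IFNb, where Endog stood at -0.52.

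Of 10 death receptor genes 2 rose and 1 fell with TCR 6 h, beside 22.3% and 22.8% of all genes. Tnfrsf10b, a receptor for TRAIL, rose by 2.29 ± 0.37 and Cflar, an inhibitor of caspase-8, by 1.89 ± 0.37. Casp8, whose product cuts Bid, fell by 2.04 (SE 0.56, limma adjusted p = 0.026). None passed at TCR 1 h, where Fasl had 1.64 ± 0.46 and Tnfrsf10b 0.91 ± 0.37. With IFNb none passed either, the largest values being 3.54 ± 0.74 for Tnfsf10, the gene of TRAIL, and 1.53 ± 0.47 for Casp8. Cflar was also higher and Ripk1 lower at TCR 6 h than at TCR 1 h (2.17 ± 0.40 and -1.25 ± 0.29).

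Of 14 regulators of the family, Rel and Atf4 rose with TCR 1 h, by 3.86 ± 0.43 and 2.06 ± 0.34 (limma adjusted p = 0.014 and 0.032). Over all genes 2.57% were called higher there. Rel encodes the NF-kB subunit c-Rel, and its signal was 569.1 after IFNb with TCR 1 h and 2019 after TCR 1 h, against 46.88 after IFNb 2 h and 86.58 in untreated cells. At TCR 6 h, 6 rose and 2 fell, beside 22.3% and 22.8% of all genes. Rel rose by 3.27 ± 0.43, Atf4 by 3.01 ± 0.34 and Nfkb1 by 2.98 ± 0.28. Foxo1, whose product can raise Bim and Puma genes, fell by 2.05 (SE 0.32). Foxo3 was not well above background on either 6 h TCR array. It was at least 5.8-fold lower there than without TCR, against the lowest signal well above background, and this bound was not tested. The fitted Foxo3 value, -2.95 ± 0.45 (limma adjusted p = 0.003), rests on those dim readings. Trp53 stood at -0.13 at TCR 6 h. No gene of these 4 lists passed in either interaction. With IFNb none of the regulators passed, and Pim2 (1.65 ± 0.47) and Rel (-0.81 ± 0.36) had the largest values.

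Markers of cell types moved with TCR 6 h beside these calls. Of 5 CD8 T cell markers 3 fell, of 5 B cell markers 4 fell and of 5 class II markers 4 fell, while of 5 NK cell markers 1 rose and 2 fell. Of all genes 22.8% were called lower and 22.3% higher. The summed CD8 T cell markers were 248400 after IFNb with TCR 6 h and 222900 after TCR 6 h, against 714600 after IFNb 7 h and 471400 in untreated cells. Their part in the changes of the Bcl-2 family genes was not tested.

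Likeness was measured as the root mean square distance over the 6 log2 differences from untreated, among 12129 named genes well above background on all 8 arrays. Nearest to Bcl2a1b were Bcl2a1c (0.122), Pdcd1lg2 (0.485) and Il17f (0.525). For Bcl2l11 the nearest were Npsr1 (0.266), Ddias (0.275) and Vamp3 (0.313), and for Bcl2 they were Arap2 (0.355), Rffl (0.37) and Fmnl2 (0.376). The 6 differences share the same untreated arrays, and the distances are descriptive.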

How the data were processed

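RNA of 8 samples was read on single-colour Agilent arrays, with 2 slides holding 4 each. The deposited processed signal is, per the file headers, a linear intensity, background-subtracted within each array by Feature Extraction 10.7.3.1, with coordinates in mm9. The submitters' processing notes name version 9.5.3.1. The authors' deposited value table of the whole series also holds intensity. Each of its columns equalled the processed signal of 1 array times a constant factor (1.209 to 1.857), with a floor of 15 and medians of 89.57, 102.4, 92.62, 95.78, 92.25, 100.6, 80.68 and 73.76. The columns for the 2 arrays with 1 h TCR matched each other's scanner file, and that table's naming was used.

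Control spots and 100 to 246 outlier spots per array were left out. Signal was scaled to the 75th percentile (807.4 to 1240.8 before scaling), repeated spots were averaged in log2, and probes well above background on at least 2 arrays were kept (28573 probes, 19815 genes by the brightest probe). At 152 repeated probes well above background the untreated arrays differed by an SD of 0.0568, with 0.0549 expected from spot noise (0.384 and 0.109 over all 245 repeated probes, dim ones included), and their mean was taken as 1 sample. Linear models used limma 3.58.1 in R 4.3.3, over 7 samples: additive (IFNb, TCR 1 h, TCR 6 h; 3 residual degrees of freedom) and with interactions (1 residual degree of freedom, from the difference between IFNb 2 h and 7 h). P values were adjusted by Benjamini-Hochberg over all genes, at a threshold of 0.05. No condition was replicated within the fits. The spread in the additive fit is therefore departure from additivity: any IFNb by TCR interaction and the difference between IFNb 2 h and 7 h. Technical and biological spread between replicates cannot be told apart from it. Scripts were tested on simulated data. Figures used matplotlib 3.10.9 in Python 3.11.15.

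The members and lists were chosen with earlier results of these data known. All 10 members are named. Of further lists the 3 largest calls in each direction, or the 2 largest values where none passed, are named, and a few other genes (Bak1, Trp53) were added after their values were seen. Some genes that this rule names are not reported here. The lists also held markers of myeloid, NK, CD4 T and erythroid cells. Their summed signals over the 8 arrays were 1795 to 3990, 11880 to 65530, 265.2 to 838.4 and 1775 to 4708. Single genes made up most of 2 of the highest sums: Nkg7, with 65090, that of NK cells, and Cd40lg, with 544, that of CD4 T cells. Alternatives covered scaling, normalization, background correction, the dim-probe filter, the value table, the identity of arrays, slide, probe choice and each array left out.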

Additional observations from a re-analysis of the deposited data

Results flagged for a closer look

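For 5 genes the IFNb difference lay below 0 in both pairs of arrays without TCR and above 0 in both pairs with TCR, a pattern shared by 5.81% of 19555 genes. The 5 genes were chosen by these signs, so a mean interaction above 0 was fixed in advance for each. The mean interaction over both TCR times (log2 difference with TCR minus without) was 2.97 ± 0.51 for Bmf, 1.85 ± 0.59 for Bbc3, 1.65 ± 0.40 for Bcl2, 1.06 ± 0.43 for Bcl2l11 and 0.272 ± 0.40 for Pmaip1 (SE). The difference was tested with limma, and none passed (adjusted p = 0.6, 0.65, 0.61, 0.7 and 0.87), while 0 of 19704 genes passed and 1433 had an unadjusted p under 0.05. The Pmaip1 differences without TCR were -0.02 and -0.00, so its place in the pattern rests on values next to 0. Among the members outside the pattern, the mean interaction of Bid was 0.008 ± 0.39. The others lay between -1.09 ± 0.45 for Bcl2a1b and -0.43 ± 0.39 for Bax. Under the scanner files' naming of the 1 h arrays 11.9% of genes show this pattern of signs and 0 of the 10 members do, since each of the 5 then lies below 0 with TCR 1 h. The other kept probes of Bcl2l11, Bcl2 and Bmf did not show the pattern. Those of Bcl2 and Bmf were above untreated with IFNb 2 h, and that of Bcl2l11 was lower with IFNb at TCR 1 h. By these probes the TCR 1 h interaction was -0.29 for Bcl2l11, -1.24 and -0.93 for Bcl2, and -0.21 for Bmf. At TCR 6 h it was 1.58 for Bcl2l11, -0.71 and -2.065 for Bcl2, and -0.40 for Bmf, and none of these passed.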

How the results depend on the processing

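No analysis paired by replicate number was possible, because only the untreated arrays carry such numbers. The reported fits hold no slide term, and slide as a block was among the alternatives. Over all settings tried, 0 of 1070 member values reversed. Of these values 1030 kept their side of the threshold, 20 lost a call and 20 gained one, and 49 uncalled values changed sign. These settings used the brightest probes, except for the mean of all kept probes of a gene. Other probes read singly are not counted here. The number of members called at TCR 1 h, 2 in the reported fit, ranged from 0 to 2 when 1 array was left out: it was 0 without IFNb 2 h, TCR 1 h or IFNb 7 h and 1 without IFNb with TCR 1 h. At TCR 6 h the leave-out range was 4 to 6, at TCR 6 h against TCR 1 h 4 to 5, and 0 for IFNb. Bcl2l11 passed at TCR 1 h with untreated arrays as 2 samples (1.26, adjusted p = 0.043). Over all genes the counts moved by more than 1.5 times: for IFNb from 0 on slide 2 alone to 290 on slide 1 alone around 13, at TCR 1 h from 38 without the TCR 1 h array to 2556 with untreated arrays as 2 samples around 852, at TCR 6 h 4748 without IFNb with TCR 6 h around 8939, and at TCR 6 h against TCR 1 h 2826 with slide as a block around 6357. With the scanner files' naming 66 genes passed in the TCR 1 h interaction, no member among them. Median scaling raised the share of higher calls to 62.7% at TCR 6 h, from 49.4%, and normexp with quantile normalization lowered it to 41.7% at TCR 1 h, from 59.9%. Leave-outs of an IFNb-alone array left no residual degree of freedom for the interactions. The cause of these differences was not tested. Signal over background did not limit the probes used, and the single array per treated condition did.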
